A study of Mus musculus with 59 samples.

Results

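The 30 genes described here encode the voltage-gated sodium and calcium channels of the mouse. They were taken from the 18088 genes of the table by symbol: the numbered Scn genes ending in a or b, the Cacna1 genes, Cacna2d1 to Cacna2d4 and Cacnb1 to Cacnb4. Of these, 12 encode sodium channel subunits and 18 calcium channel subunits. All 30 passed the filter of 10 or more normalised counts in 4 or more libraries, which 17891 genes of the whole table passed. Cacna1f was at 10 or more in 7 libraries and Scn10a in 21, and the other 28 in all 59.

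Messenger RNA of the prefrontal cortex was sequenced in C57BL/6J mice at postnatal day 25. At Naa15 the mice were WT (wild type, 30 libraries) or HT (heterozygous, 29 libraries), and its product is the ribosome-anchoring subunit of an N-terminal acetyltransferase. From postnatal day 3 to day 24 the pups were treated through the milk of their mothers with vehicle (19 libraries), with fluoxetine, which blocks serotonin reuptake (20 libraries), or with lithium, used to stabilise mood (20 libraries). Each combination of genotype, treatment and sex had 5 libraries, and HT vehicle males had 4. The labels do not describe the Naa15 allele, the doses, the litters or whether each library is a separate animal, so p-values measure the spread between these samples, which may in part be technical or shared by litters.

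Each voltage-gated sodium or calcium channel has a large pore-forming alpha subunit, which senses the membrane potential and conducts the ion, and smaller auxiliary subunits. Sodium channels open briefly at threshold and produce the rising phase of the action potential, and their beta subunits tune gating and anchor the channel. Among calcium channels, the Cav2 group drives transmitter release, Cav1 (L-type) couples activity to gene expression and to dendritic calcium, and Cav3 (T-type) opens at low voltage and supports burst firing. The cytoplasmic beta and extracellular alpha2delta subunits bring calcium channels to the membrane. Several genes of both families are known from inherited epilepsy, ataxia, autism or psychiatric risk.

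Many members lie next to each other in the genome. On chromosome 2 of GRCm38, Scn3a (65457118 to 65567627, minus strand), Scn2a (65620771 to 65767447, plus strand) and Scn1a (66270778 to 66440840, minus strand) form a cluster with Scn9a and Scn7a. Scn2b (chromosome 9, 45117782 to 45130070, plus strand) and Scn4b (45138395 to 45154152, plus strand) are neighbours. The 3 stretches directly upstream of an annotated start are printed because their genes contrast in the lithium comparison below: Cacna1b and Cacna1i fell under lithium in the values as deposited but not once the dependence of each library on base composition and gene length was removed, and Scn2b fell in both. They are read 5′ to 3′ on the gene's strand from RefSeq (GRCm38.p6), with GGGCGG, the GC box bound by Sp-family factors, in capitals. The Cacna1b stretch (chr2:24763153-24763402, minus strand, 250 bases) has 72.0% G or C and 3 GC boxes. The Cacna1i stretch (chr15:80286988-80287237, plus strand, 250 bases) has 62.4% and 0, and that of Scn2b (chr9:45117626-45117781, plus strand, 156 bases) has 35.3% and 0. Whether upstream composition goes with the lithium outcome was not tested. The base composition in the removed dependence is that of each gene's longest transcript, not of these stretches. It is 52.9% G or C for Cacna1b, 59.3% for Cacna1i and 50.5% for Scn2b.
Cacna1b: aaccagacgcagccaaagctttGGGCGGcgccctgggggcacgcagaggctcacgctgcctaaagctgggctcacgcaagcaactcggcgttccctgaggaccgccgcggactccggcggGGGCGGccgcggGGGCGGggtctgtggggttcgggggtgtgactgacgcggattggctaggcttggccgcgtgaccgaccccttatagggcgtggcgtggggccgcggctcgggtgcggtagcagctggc
Cacna1i: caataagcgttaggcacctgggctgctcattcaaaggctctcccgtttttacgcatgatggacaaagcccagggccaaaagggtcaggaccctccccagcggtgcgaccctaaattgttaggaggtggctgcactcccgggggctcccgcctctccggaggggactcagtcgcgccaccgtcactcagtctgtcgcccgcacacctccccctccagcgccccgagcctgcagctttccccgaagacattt
Scn2b: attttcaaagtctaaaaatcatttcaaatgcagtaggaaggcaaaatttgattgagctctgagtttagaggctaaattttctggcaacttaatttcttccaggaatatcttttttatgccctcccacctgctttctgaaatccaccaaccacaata

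RefSeq promoter windows (the 250 bases before each start) matched 22 of the 30 members, with 32 windows. GGGCGG, searched on both strands, was in 13 of these, 1 for each of 13 genes, and in 32.7% of all 32851 windows. TATAAA was in 2 member windows, those of Cacna1d and Scn2a, against 12.4% of all windows. TGACGTCA, the palindromic site of the CREB family, was in 0 member windows and in 1.55% of all. A match is a description of the letters only. The other members with windows that fell under lithium with and without the dependence removed varied in G and C. Cacna1c had 50.4%, 51.6% and 82.8% in its windows, Cacnb2 46.0% and 73.2%, and Scn2a 29.6% and 53.2%.

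Sequencing depth was similar throughout, from 24.99 to 32.87 M recovered reads per library (median 29.11 M). Naa15 itself did not separate the genotypes: WT libraries ran from 1476 to 1971 normalised counts (median 1631) and HT libraries from 1510 to 1909 (median 1670), so HT below means labelled heterozygous. The log2 difference of Naa15 between HT and WT under vehicle was -0.03 ± 0.0414 (SE, limma adjusted p = 0.895). On the first principal component (14.4% of the variance) the 20 lithium libraries (-31.6 to -14.9) and the 5 libraries of HT fluoxetine females (-28.1 to -16.0) lay together, away from the other 34 (-2.74 to 27.6). The same 25 had a larger share of mitochondrial transcripts (6.76% to 10.3% and 6.91% to 9.03%, against 4.96% to 7.83%). Relative to the mean of each gene over the libraries, their log2 values declined with the G and C content of genes (slopes per 10 percentage points of -0.258 to -0.0554 and -0.237 to -0.0575, against -0.0649 to 0.191). Comparisons that pool the HT fluoxetine females with other libraries are therefore also given without them. The lithium differences, and the calls that involve those females, are set beside a fit in which each library's trend with GC content and length was taken out. Of the labelled tissue, markers of cortical excitatory neurons had summed levels of 126001 to 203890 normalised counts in the vehicle and lithium libraries.

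Per kilobase of exon, the most abundant members under vehicle were auxiliary subunits. Levels are compared between genes as normalised counts per kilobase of exon, as mean ± SD in the 10 WT vehicle libraries. Exon length is that of all annotated exons of a gene merged, and the order depends on it. In undivided normalised counts Scn8a (mean 12864) and Scn2a (12557) lay above Cacnb3 (9640). Among the auxiliary subunits abundant per kb were Cacnb3, a calcium channel beta subunit gene, at 2404 ± 250 per kb, and Scn2b, a disulfide-linked sodium channel beta subunit, at 1782 ± 104. The first pore-forming genes in the order were Scn2a at 986 ± 55.8 per kb and Scn8a at 816 ± 57, the main sodium channels of the axon initial segment of excitatory neurons. Scn1a, the sodium channel of fast-spiking interneurons, was at 396 ± 51.6 per kb and Scn3a, prominent in the embryonic brain, at 138 ± 16.

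Among calcium channel pores, Cacna1a (P/Q-type) led with 683 ± 46.5 per kb, ahead of Cacna1b (N-type) with 554 ± 37.1. The T-type genes Cacna1i and Cacna1g followed at 515 ± 25.5 and 436 ± 16.3 per kb. Cacna1e (R-type) was at 358 ± 52.6 per kb, Cacna1h (T-type) at 227 ± 31.4, and the L-type genes Cacna1d and Cacna1c at 188 ± 20.7 and 174 ± 25.2. Undivided, Cacna1e had a mean of 9037 normalised counts over 25228 bases of merged exon, and Cacna1a 7802 over 11418. The other auxiliary subunits covered much of the same range: Cacnb1 at 1132 ± 103 per kb, Cacnb4 at 879 ± 94.9, Cacna2d1 at 756 ± 83.5, Scn3b at 654 ± 29.3, Cacna2d3 at 343 ± 40.5, Scn4b at 327 ± 224, Cacna2d2 at 163 ± 27 and Cacnb2 at 110 ± 5.89. At the low end, Scn7a, a sodium-sensing channel gene, was at 29 ± 6.4 per kb, Cacna2d4 at 8.87 ± 1.59, the skeletal muscle gene Cacna1s at 5.93 ± 2.06 and the sensory neuron gene Scn9a at 4.6 ± 1.39. Scn10a, another sensory neuron gene, was at 0.847 ± 0.748 per kb and was 0 in some libraries, and the retinal gene Cacna1f was at 0.673 ± 0.264.

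The order is mostly gradual: in 22 of the 27 neighbouring pairs among 28 of the genes the 10 libraries of the 2 genes overlapped. The 5 pairs that did not were Scn2b above Cacnb1, Scn3b above Cacna1b, Cacnb2 above Scn7a, Scn7a above Cacna2d4, and Scn9a above Scn10a. Skeletal muscle markers (Acta1, Myh4 and Mylpf summed) had medians of 178 to 284 normalised counts across groups, and peripheral sensory neuron markers 47 to 55. Within these lists Myh4 had medians of 11.8 to 19.3 normalised counts and Isl1 of 0 to 1.05.

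**Figure D1:**
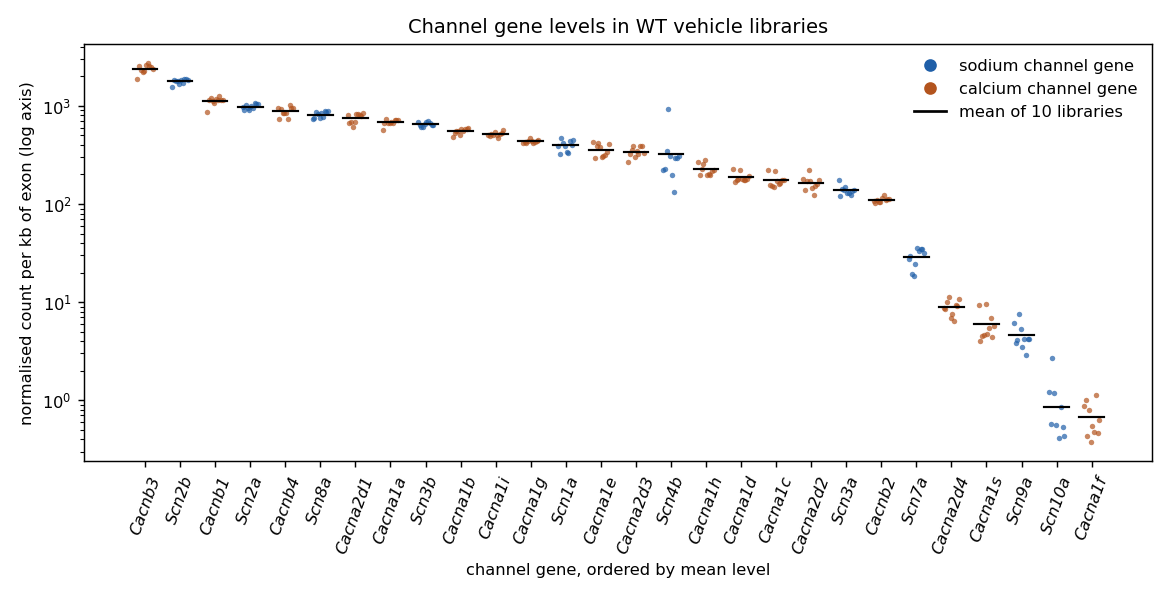
Normalised counts per kilobase of exon of 28 of the genes in the 10 WT vehicle libraries (log axis), ordered by mean level, with 1 point per library (a Scn10a value of 0 cannot be drawn) and the mean as a line. Cacnb3 is drawn first at 2404 per kb and Cacna1f is last at 0.673 per kb, and the 10 points of Scn4b spread more widely than those of its neighbours in the order.

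The genotype comparison without a drug asks what the Naa15 allele does to channel transcripts by itself. Under vehicle, 0 of the 30 genes differed between HT and WT in limma-trend, where 0.106% of all genes did, and 2 had an unadjusted p under 0.05, 1 in each direction. edgeR and DESeq2 on the recovered reads also called 0. Scn1a, the gene of Dravet syndrome, ran from 3637 to 5252 normalised counts in WT (median 4430) and from 3333 to 4555 in HT (median 3973). The groups overlapped, and the log2 difference was -0.18 ± 0.0717 (SE, limma adjusted p = 0.489), with 8 of 9 HT libraries below the WT mean of their sex. Scn2a (log2 difference -0.06), Cacna1c (-0.04), Scn8a (-0.03), Scn3a (-0.03) and Cacna1a (-0.02) lay closer to 0.

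Under lithium the HT and WT libraries likewise gave 0 called members (0.386% of all genes), with 5 at an unadjusted p under 0.05 and 0 by edgeR and DESeq2. Cacna1c was highest among the named genes in this comparison, with a log2 difference of 0.18 ± 0.061 (adjusted p = 0.152). Its WT lithium libraries ran from 2018 to 3044 normalised counts (median 2739) and its HT lithium libraries from 2787 to 3783 (median 2958), so they overlapped.

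Lithium gave the broadest difference. Over both genotypes, 5 members rose and 19 fell in limma-trend at an adjusted p under 0.05, while 32.7% and 30.4% of all genes did (63.1% in either direction). The median log2 difference of the members was -0.18 and that of all genes 0.02. Calcium channel genes accounted for 15 of the 19 decreases and 2 of the increases (18 genes, median -0.21), and sodium channel genes for 4 and 3 (12 genes, median -0.04). edgeR and DESeq2 on recovered reads gave 4 higher and 20 lower each, and their shares of all genes called are not given here. The shares above are those of limma-trend. Because the libraries are bulk tissue, fewer cells of a type and less RNA per cell cannot be told apart in any of these values.

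The GC and length trend moves with treatment, and the members were richer in G and C and longer than other genes at the median. Their median GC content was 51.7% against 49.4% for all genes, and their median exon length 9620.5 bases against 4020. Across the 30 members, GC content and the lithium log2 difference had r = -0.53 (all genes -0.46), a description over genes that share the same libraries, and 0.10 after the trend was removed. Of the 19 members above the median GC content, 15 fell and 1 rose, while of the 11 at or below it 4 fell and 4 rose. After removal of the trend, 6 members were higher and 5 lower, where 47.5% of all genes were called. The members called the same way in both fits numbered 8 (34.8% of all genes), and 3 turned from lower to higher (3.22% of all genes called opposite ways). What moves the trend was not tested.

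**Figure D2:**
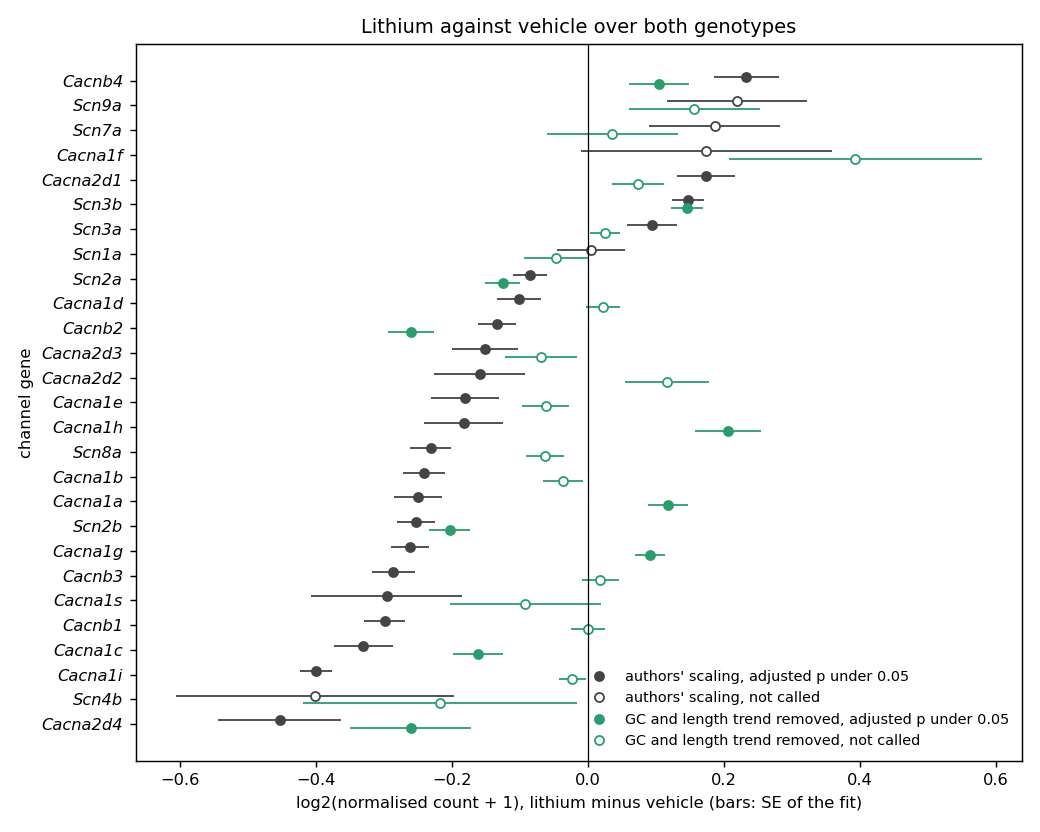
Log2 difference of lithium minus vehicle over both genotypes (points, with the SE of the fit as bars) for 27 of the genes, from the deposited values and after each library's trend with GC content and length was taken out, with filled points for an adjusted p under 0.05. Scn10a, at 0.73, is left off for scale. Cacna1i goes from -0.40 to -0.02 and Scn2b from -0.25 to -0.20.

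All 3 T-type channel genes fell. Cacna1i (chromosome 15, 80287238 to 80398279, plus strand) ran from 4665 to 5548 normalised counts in WT vehicle libraries (median 5046) and from 3253 to 3969 in WT lithium libraries (median 3797). In HT it went from 4561 to 5392 under vehicle (median 4971) and from 3511 to 4124 under lithium (median 3808). The vehicle and lithium libraries did not overlap in either genotype, as for 12.1% of all genes in WT and 13.3% in HT. The log2 difference over both genotypes was -0.40 ± 0.0234 (SE, adjusted p = 6.23e-21), with all 20 lithium libraries below the vehicle mean of their genotype and sex. After trend removal it was -0.02 (adjusted p = 0.352).

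Cacna1g (chromosome 11, 94408391 to 94474198, minus strand) ran from 4267 to 4800 normalised counts in WT vehicle libraries (median 4385) and from 2919 to 3928 under lithium (median 3522), again without overlap. In HT, vehicle libraries had 3859 to 4581 (median 4275) and lithium libraries 3442 to 4074 (median 3716), which overlapped. Its log2 difference over both genotypes was -0.26 ± 0.0276 (adjusted p = 5.33e-12), and after trend removal it was 0.09 (adjusted p = 0.000522), a called increase. Cacna1h, the third T-type gene, fell by 0.18 on the log2 scale (adjusted p = 0.00501) with 14 of 20 libraries below the vehicle mean, and was 0.21 higher after trend removal (adjusted p = 0.000379).

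All 3 Cav2 genes of the presynaptic terminal fell. For Cacna1a (chromosome 8, 84388440 to 84640246, plus strand), WT vehicle libraries ran from 6534 to 8413 normalised counts (median 7760) and WT lithium libraries from 5656 to 7051 (median 6714), and HT libraries from 6959 to 8757 (median 7674) and from 5244 to 7533 (median 6628). The ranges overlapped in both genotypes, although all 20 lithium libraries lay below the vehicle mean of their genotype and sex. The log2 difference was -0.25 ± 0.0356 (adjusted p = 2.08e-08), and after trend removal the gene was called higher by 0.12 (adjusted p = 0.000881).

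Cacna1b, whose upstream stretch is printed above, had 4846 to 5960 normalised counts in WT vehicle libraries (median 5518) and 4173 to 5117 in WT lithium libraries (median 4771). Its log2 difference was -0.24 ± 0.0309 over both genotypes (adjusted p = 1.52e-09) and -0.04 after trend removal (adjusted p = 0.322). Cacna1e fell by 0.18 (adjusted p = 0.00144), with -0.06 after trend removal (adjusted p = 0.129). The decreases of Cacna1b and Cacna1e thus did not pass the test once the trend was removed, and that of Cacna1a reversed.

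Among L-type genes, Cacna1c kept its direction and call. This gene (chromosome 6, 118587240 to 119196418, minus strand), the cause of Timothy syndrome and a psychiatric risk locus, had 3134 to 4685 normalised counts in WT vehicle libraries (median 3559) and 2018 to 3044 under lithium (median 2739). These did not overlap, while the HT libraries did, with 3271 to 4014 under vehicle (median 3515) and 2787 to 3783 under lithium (median 2958). The log2 difference was -0.33 ± 0.0438 over both genotypes (adjusted p = 3.74e-09), -0.44 ± 0.061 in WT and -0.22 ± 0.0629 in HT. Trend removal left -0.16 (adjusted p = 0.0003) over both genotypes, with -0.24 (adjusted p = 0.000184) for WT and -0.08 (adjusted p = 0.266) for HT. Cacna1d fell by 0.10 (adjusted p = 0.00501) and Cacna1s by 0.30 (adjusted p = 0.0178), with 0.02 and -0.09 after trend removal. Cacna1s is a muscle gene at low level here, with medians of 30.1 to 36.8 normalised counts across groups, and the skeletal muscle markers Acta1 and Myh4 also fell under lithium; its relation to them was not tested.

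The cytoplasmic beta subunits did not move as a block. Cacnb1 (chromosome 11, 98001508 to 98023034, minus strand) ran from 4739 to 5743 normalised counts in HT vehicle libraries (median 5092) and from 3618 to 4412 in HT lithium libraries (median 4135), without overlap. In WT, lithium libraries had 3924 to 4631 (median 4212) and vehicle libraries 3956 to 5664 (median 5253), which overlapped through WT vehicle female 1, the lowest vehicle library. It fell by 0.30 (SE 0.0296, adjusted p = 7.77e-13), and Cacnb3, which binds neuronal Cav1 and Cav2 pores, by 0.29 (SE 0.0315, adjusted p = 1.99e-11).

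Cacnb3 (chromosome 15, 98630840 to 98644529, plus strand) had 8786 to 10549 normalised counts under vehicle (median 9752) and 7518 to 8356 under lithium (median 7833) in HT, where the libraries did not overlap. In WT it had 7591 to 10992 under vehicle and 6990 to 8998 under lithium, which overlapped. Neither decrease was left after trend removal (-0.00, adjusted p = 0.991, for Cacnb1 and 0.02, adjusted p = 0.608, for Cacnb3). Cacnb2 (chromosome 2, 14603088 to 14987908, plus strand) fell by 0.13 (adjusted p = 4.22e-05), from medians of 1465 to 1320 normalised counts in WT and 1389 to 1312 in HT with overlap in both. After trend removal its difference was -0.26 (adjusted p = 9.07e-09).

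Cacnb4, the beta subunit mutated in the lethargic mouse, went the other way. Its WT vehicle libraries ran from 6555 to 9069 normalised counts (median 7947) and its WT lithium libraries from 8002 to 10828 (median 8894). In HT they ran from 5782 to 8410 (median 7439) and from 7590 to 9499 (median 8540). The ranges overlapped, and all 20 lithium libraries lay above the vehicle mean of their genotype and sex. Cacnb4 rose by 0.23 ± 0.048 on the log2 scale (adjusted p = 3.26e-05), and by 0.11 after trend removal (adjusted p = 0.0446).

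Of the alpha2delta subunits, Cacna2d1, the binding site of gabapentin, rose by 0.17 ± 0.043 on the log2 scale (adjusted p = 0.000429). Its medians went from 9951 normalised counts under vehicle to 10580 under lithium in WT and from 8897 to 9744 in HT, with overlapping libraries. Cacna2d2, Cacna2d3 and Cacna2d4 fell by 0.16, 0.15 and 0.45 (adjusted p = 0.0353, 0.00578 and 1.99e-05). After trend removal only Cacna2d4 of the 4 was called, at -0.26 (adjusted p = 0.0124). Cacna2d1 was then at 0.07 (adjusted p = 0.112) and Cacna2d3 at -0.07 (adjusted p = 0.287), while Cacna2d2 turned direction, to 0.12 (adjusted p = 0.116). The level of Cacna2d4 is low, with medians of 59.1 to 99.7 normalised counts across groups. The decrease of Cacna2d2 lost its call when any of 11 single libraries was left out (adjusted p = 0.0513 to 0.0955): HT lithium female 3 or 5, HT lithium male 5, HT vehicle male 2 or 3, WT lithium female 2, 3 or 5, WT lithium male 2, WT vehicle female 4 or WT vehicle male 5.

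Among sodium channel pores, Scn8a and Scn2a fell and Scn3a rose, all by small amounts. Scn8a (chromosome 15, 100869858 to 101045938, plus strand) had 11623 to 13902 normalised counts in WT vehicle libraries (median 13078) and 9552 to 11881 under lithium (median 10969). In HT it had 11404 to 13745 (median 12306) and 8747 to 11776 (median 11189). These ranges overlapped at their edges, and all 20 lithium libraries were below the vehicle mean of their genotype and sex. Its log2 difference was -0.23 ± 0.03 (adjusted p = 2.15e-09), and after trend removal -0.06 (adjusted p = 0.0552).

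Scn2a, one of the most frequently mutated genes in autism, ran from 11615 to 13586 normalised counts in WT vehicle libraries (median 12468) and from 10773 to 12654 in WT lithium libraries (median 11811). The HT libraries ran from 10406 to 13166 (median 12205) and from 10026 to 12239 (median 11514). Its groups overlapped broadly. The log2 difference was -0.09 ± 0.0248 (adjusted p = 0.00249), -0.13 after trend removal (adjusted p = 7.46e-05) and 0.01 after quantile normalisation, so its direction depends on the scaling.

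Scn3a rose by 0.09 ± 0.0367 (adjusted p = 0.022), from medians of 1702 to 1828 normalised counts in WT and 1650 to 1810 in HT, with 0.03 after trend removal (adjusted p = 0.354). Scn1a had a log2 difference of 0.00 ± 0.0499 (adjusted p = 0.951): its WT lithium libraries ran from 3407 to 5229 normalised counts (median 4443), across nearly the same range as under vehicle. Scn10a was called higher by 0.73 ± 0.312 (adjusted p = 0.0386), but from medians of 4.53 to 9.19 normalised counts in WT, and edgeR (adjusted p = 0.117) and DESeq2 (adjusted p = 0.0943) did not call it. Leaving out any of 10 single libraries also ended that call (adjusted p = 0.0522 to 0.109): HT lithium female 1 or 2, HT lithium male 2, HT vehicle female 2, HT vehicle male 4, WT lithium male 1 or 3, WT vehicle female 2 or 5 or WT vehicle male 1.

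The sodium channel beta subunits split. Scn3b (chromosome 9, 40269217 to 40291618, plus strand), a sodium channel beta subunit gene, had 3355 to 3809 normalised counts in WT vehicle libraries (median 3562) and 3652 to 4224 in WT lithium libraries (median 3994). The HT libraries had 3218 to 3850 (median 3530) and 3564 to 4258 (median 3822). Lithium libraries were high in both genotypes, with some overlap. Scn3b rose by 0.15 ± 0.0242 on the log2 scale (adjusted p = 5.28e-07, 20 of 20 libraries above the vehicle mean), and by 0.15 after trend removal (adjusted p = 7.64e-07).

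Scn2b fell, from 7320 to 8858 normalised counts under vehicle (median 8447) to 6144 to 7626 under lithium (median 7182) in WT. In HT it went from 7276 to 8641 (median 8390) to 5591 to 7639 (median 6711). All 20 lithium libraries were below the vehicle mean of their genotype and sex, although the ranges overlapped. Its log2 difference of -0.25 ± 0.0277 (adjusted p = 1.76e-11) was -0.20 after trend removal (adjusted p = 1.54e-07).

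**Figure D3:**
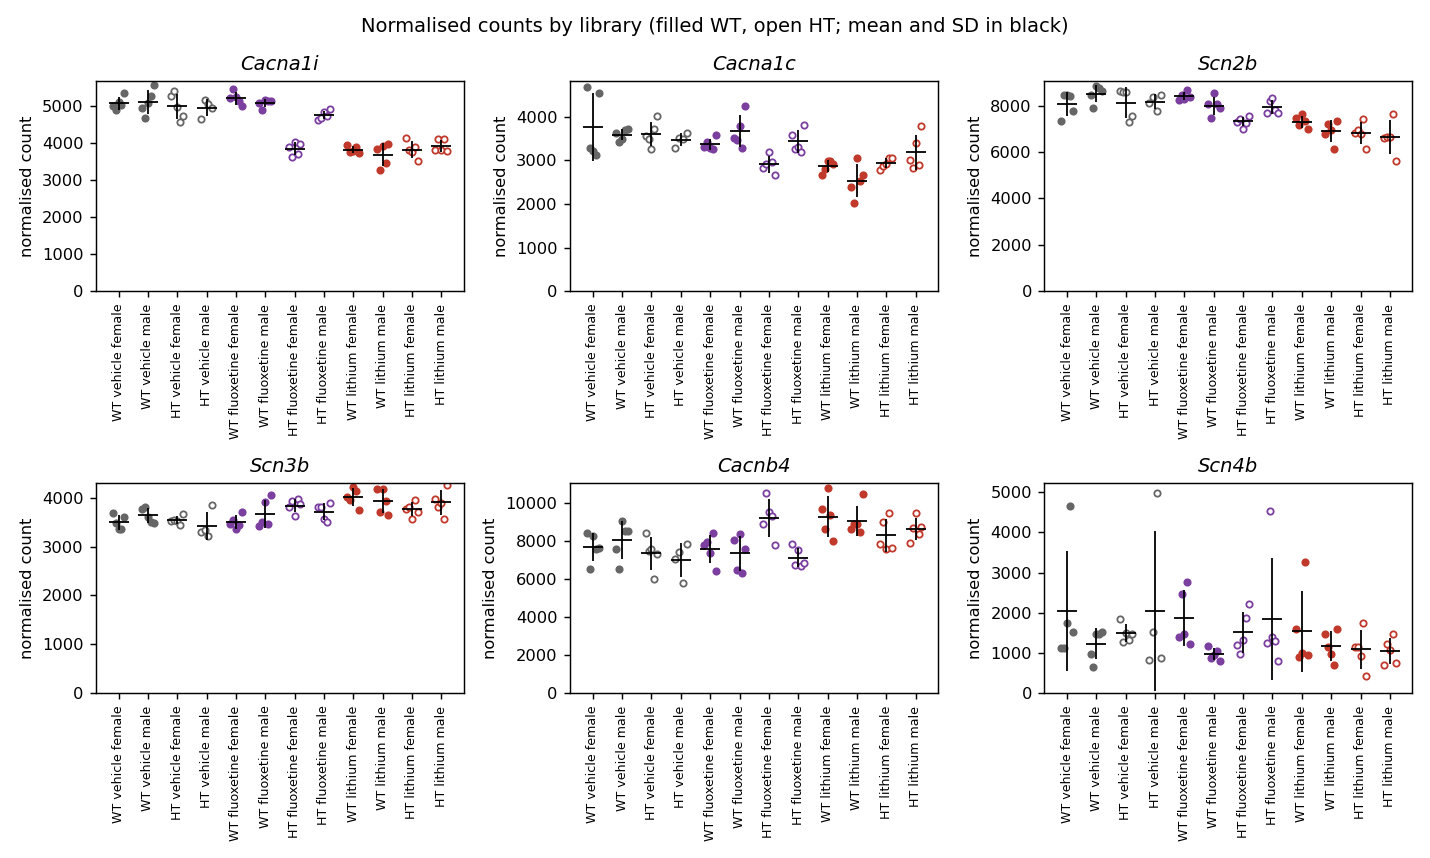
Normalised counts of Cacna1i, Cacna1c, Scn2b, Scn3b, Cacnb4 and Scn4b in each library of the 12 groups (filled points WT, open points HT; mean and SD in black). The 20 lithium libraries of Cacna1i lie between 3253 and 4124, below all vehicle libraries, and the 5 HT fluoxetine females lie at 3628 to 4027.

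Within genotypes, lithium gave 3 higher and 16 lower members in WT (26.6% and 26.3% of all genes, 52.9% in all) and 4 higher and 13 lower in HT (25.7% and 24.9%, 50.6% in all). With the trend removed these were 3 and 4 in WT (36.5% of all genes) and 4 and 4 in HT (29.8%). The interaction of genotype with lithium called 0 members (0% of all genes), with 2 at an unadjusted p under 0.05 and 0 by edgeR and DESeq2. Genes called in 1 genotype, such as Cacna1h in WT (-0.21, adjusted p = 0.0252) and Scn3a in HT (0.14, adjusted p = 0.0233), were therefore not shown to differ between genotypes. By sex, the WT comparison called 18 of 30 members among females (37.8% of all genes) and 13 among males (43.5%), and the HT comparison 10 among females (37.7%) and 15 among males (38.9%). The interaction of sex with lithium called 0 members in limma (0.0112% of all genes, 4 members at an unadjusted p under 0.05).

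Fluoxetine in WT changed 1 member, Cacnb2. Its vehicle libraries ran from 1340 to 1620 normalised counts (median 1465) and its fluoxetine libraries from 1206 to 1519 (median 1283), which overlapped. The log2 difference was -0.15 ± 0.0388 (adjusted p = 0.0362, 9 of 10 libraries lower), where 1.02% of all genes were called. After trend removal it was -0.10 (adjusted p = 0.471), and after median centring the adjusted p was 0.0639. Leaving out any of 14 single libraries ended the call: WT fluoxetine females 1, 3 and 5, WT fluoxetine males 1, 2 and 4, WT vehicle females 1, 3, 4 and 5, and WT vehicle males 1, 2, 4 and 5. Scn1a (-0.14, adjusted p = 0.45), Scn3a (-0.09), Cacna1a (0.06), Cacna1c (-0.06), Scn2a (-0.03) and Scn8a (-0.00) did not pass in this comparison.

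Fluoxetine in HT gave 2 higher and 9 lower members (31.2% of all genes called), and 0 without the females. Without the 5 HT fluoxetine female libraries, which leaves 5 treated and 4 vehicle males, 0 members were called in limma (0.145% of all genes) and 2 had an unadjusted p under 0.05. This comparison shares its vehicle libraries with the lithium comparison in HT. Cacna1i had 3628, 3697, 3889, 3970 and 4027 normalised counts in the HT fluoxetine females, and 4561, 4723, 4971, 5247 and 5392 in the HT vehicle females. In the males it had 4613, 4673, 4724, 4823 and 4900 under fluoxetine and 4629, 4945, 5034 and 5160 under vehicle. The females did not overlap and the males did, and the share of all genes without overlap in these comparisons was not computed.

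The log2 difference of Cacna1i in HT was -0.21 ± 0.0335 over both sexes (adjusted p = 1.54e-06), -0.37 ± 0.046 in females (adjusted p = 4.18e-09) and -0.06 ± 0.0488 in males (adjusted p = 0.79). The interaction of sex with fluoxetine in HT was -0.31 ± 0.0671 for Cacna1i (adjusted p = 0.000818), and it also passed for Cacna1g (-0.31 ± 0.0791, adjusted p = 0.00476), Cacna1h (-0.49 ± 0.165, adjusted p = 0.0369) and Cacnb1 (-0.24 ± 0.0851, adjusted p = 0.0449), with 15.2% of all genes called. After trend removal 0 members passed this interaction (1 at an unadjusted p under 0.05, 1.45% of all genes called), with 0.03 for Cacna1i. In limma, 16 members were called for HT females (38.3% of all genes). For HT males, WT females and WT males there were 0 (0.162%, 0.14% and 0.129% of all genes), with 2, 5 and 4 members at an unadjusted p under 0.05. Set directly against the HT lithium females, the HT fluoxetine females differed in 0 members (0 at an unadjusted p under 0.05, 0.0559% of all genes called), with 0.01 ± 0.046 for Cacna1i, whose HT lithium females had 3511, 3761, 3798, 3884 and 4124 normalised counts. After trend removal 0 members differed between them (1 at an unadjusted p under 0.05, 0.201% of all genes called). Whether these 5 libraries stand apart through treatment, sex, handling or labelling cannot be told apart, so every HT fluoxetine value holds for the libraries as labelled.

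Scn3b had the same log2 difference with and without those libraries. It had 3630, 3818, 3868, 3939 and 3975 normalised counts in HT fluoxetine females against 3436, 3530, 3533, 3542 and 3669 in HT vehicle females. In HT males it had 3508, 3571, 3810, 3818 and 3903 against 3218, 3297, 3345 and 3850. Fluoxetine libraries were high in both sexes, with overlap in each. Scn3b rose by 0.12 ± 0.0347 in HT (adjusted p = 0.00583, 10 of 10 libraries higher), was 0.12 after trend removal (adjusted p = 0.0121), and was 0.12 ± 0.0518 in males alone, where it did not pass (adjusted p = 0.507).

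The other 9 members called in this comparison were Cacnb4, which rose by 0.18 (adjusted p = 0.0426), and 8 that fell. Among these, Cacna2d4 fell by 0.50 ± 0.13 (adjusted p = 0.00197; -0.44 in males, adjusted p = 0.485), Cacnb3 by 0.22, Cacna1c by 0.17, Cacnb1 by 0.16, Cacna1b by 0.12, Scn8a by 0.12 and Cacnb2 by 0.12. Leaving out a single library ended some calls, among them Cacna1c (any of 10 libraries), Cacnb4 (9), Scn8a (8), Cacna1b (5) and Cacnb2 (1). After trend removal (11.6% of all genes called) Scn3b and Cacna1g (0.12, adjusted p = 0.00622) were higher, and Cacna2d4 (-0.39, adjusted p = 0.0342) and Cacnb2 (-0.22, adjusted p = 0.00179) lower.

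HT against WT under fluoxetine, which uses the same HT fluoxetine libraries, gave 0 higher and 10 lower members (33.3% of all genes called). Cacna1i ran from 3628 to 4900 normalised counts in HT (median 4320) and from 4887 to 5450 in WT (median 5126), which overlapped only at the edge, with all 10 HT libraries below the WT mean of their sex. Its log2 difference was -0.27 ± 0.0325 (adjusted p = 7.49e-09), -0.10 without the HT females (adjusted p = 0.317) and -0.04 after trend removal (adjusted p = 0.38). Cacnb3 (-0.26), Cacnb1 (-0.22), Cacna1a (-0.20), Cacna1g (-0.18), Cacna1b (-0.17), Cacna1c (-0.15), Scn8a (-0.14) and Scn2b (-0.11) were among the others that fell. The Cacna1c call ended when any of 13 single libraries was left out, and the Scn2b call when any of 3 was. Without the HT fluoxetine females 0 members were called (1.4% of all genes, 4 members at an unadjusted p under 0.05), and after trend removal (13% of all genes) the single call was Cacna1d, higher by 0.13 (adjusted p = 0.00674). Quantile normalisation gave 2 higher and 8 lower members, with 3188 higher and 2929 lower among all 17891 genes.

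The interaction of genotype with fluoxetine was called for 4 members (20.6% of all genes). These were Cacnb3 (-0.27 ± 0.063, adjusted p = 0.0014), Cacna1i (-0.23 ± 0.0467, adjusted p = 0.000285), Cacnb1 (-0.23 ± 0.0593, adjusted p = 0.00402) and Cacna1b (-0.17 ± 0.0618, adjusted p = 0.0393). Quantile normalisation gave 3 higher and 3 lower members, with 1966 higher and 1849 lower among all 17891 genes. None of the 4 was called without the HT fluoxetine females, where 0% of all genes were called and 1 member had an unadjusted p under 0.05, or after trend removal (1.86% of all genes). HT against WT over all treatments gave 6 lower members (14.7% of all genes called), among them Cacna1i (-0.09), Cacnb1 (-0.09), Cacnb3 (-0.08), Scn2b (-0.07) and Scn8a (-0.07). The Scn8a call ended when any of 36 single libraries was left out (limma adjusted p = 0.051 to 0.085). Without the HT fluoxetine females 0 were called (2.96% of all genes, 7 members at an unadjusted p under 0.05), and after trend removal (10.3% of all genes) Scn2b was lower (-0.07, adjusted p = 0.0449) and Cacna1d higher (0.08, adjusted p = 0.00748). Quantile normalisation gave 1 higher and 2 lower members, with 1074 higher and 1361 lower among all 17891 genes.

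**Figure D4:**
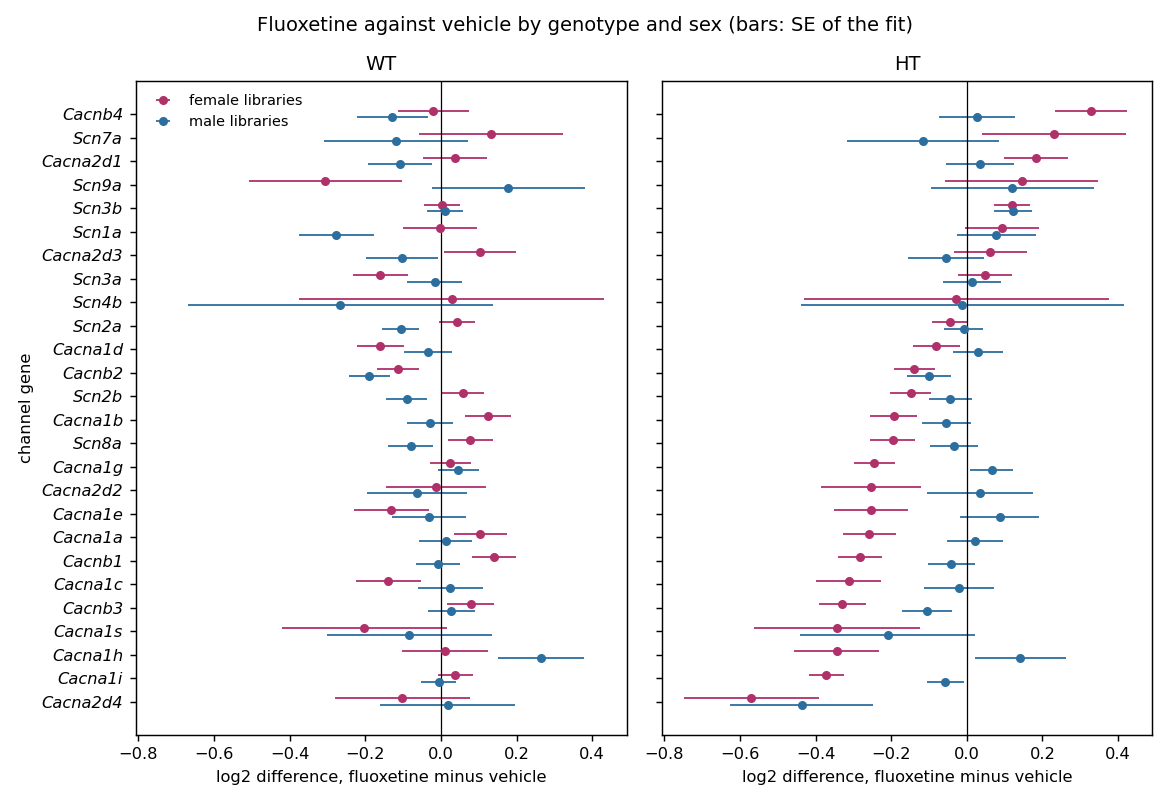
Log2 difference of fluoxetine minus vehicle (points, with the SE of the fit as bars) in WT and HT, with female and male libraries apart, for 26 of the genes (Scn10a and Cacna1f are left off for scale). In HT, Cacna1i is at -0.37 in females and -0.06 in males, and Scn3b lies above 0 in both sexes.

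Females and males differed in 3 members over all groups (8.76% of all genes called). Cacnb3 was lower in females by a log2 difference of -0.12 ± 0.0256 (adjusted p = 0.00464), Cacnb1 was lower (-0.07 ± 0.0241, adjusted p = 0.0485), and Scn1a was higher (0.12 ± 0.0406, adjusted p = 0.0482). The HT fluoxetine females enter these values: Cacnb3 averaged 7531 ± 296 normalised counts in them and 9251 ± 777 in HT fluoxetine males (SD, n = 5 each), and Cacnb1 4214 ± 161 and 5016 ± 263. Without them, over the 5 other pairs of female and male groups, 0 members were called (0.151% of all genes, 6 members at an unadjusted p under 0.05), with -0.08 for Cacnb3 (adjusted p = 0.251), -0.04 for Cacnb1 (adjusted p = 0.588) and 0.12 for Scn1a (adjusted p = 0.304). After trend removal in all libraries 0 were called (0.537% of all genes, 6 members at an unadjusted p under 0.05).

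Genes whose products bind or place these channels were followed as lists, chosen with earlier results known. Of 19 sodium channel partners, 2 rose and 12 fell under lithium over both genotypes, and 3 and 8 were called after trend removal, where 63.1% and 47.5% of all genes were called in either direction. Ank3, which encodes ankyrin-G, the scaffold that holds sodium channels at the axon initial segment, fell by 0.37 ± 0.0327 (adjusted p = 1.16e-14) and was at -0.25 after trend removal. Ank2, a related ankyrin, fell by 0.28, the spectrin gene Sptbn1 by 0.25 and Prrt2, which modulates sodium channels and release, by 0.33, and all were lower after trend removal (-0.13, -0.16 and -0.19).

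Of 26 calcium channel partners tested, 3 rose and 16 fell under lithium, and 2 and 12 were called after trend removal, against the same shares of all genes. Rims1, the active-zone protein that tethers presynaptic calcium channels, fell by 0.46 ± 0.0297 (adjusted p = 2.83e-19), and by 0.44 after trend removal. Cacng8, an AMPA receptor auxiliary subunit of the calcium channel gamma family, fell by 0.43 ± 0.031 (adjusted p = 1.19e-17), with -0.16 after trend removal. The calmodulin genes split, Calm2 rising by 0.25 and Calm3 falling by 0.24, and after trend removal they were at -0.08 and -0.07. Under vehicle 0 of either list differed between genotypes. For HT against WT under fluoxetine, 1 sodium channel partner rose and 9 fell, and 1 calcium channel partner rose and 11 fell, against 33.3% of all genes called, and without the HT fluoxetine females 0 of either list were called (1.4% of all genes).

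Markers of the cell types that express these channels also moved under lithium, where 63.1% of all genes were called. Of 10 excitatory neuron markers 1 rose and 7 fell (0 and 4 after trend removal, with 47.5% of all genes called), and their summed level ran from 141685 to 203890 normalised counts in WT vehicle libraries (median 186642) and from 136184 to 165552 in WT lithium libraries (median 151288). In HT it ran from 158750 to 198333 (median 181297) and from 126001 to 153641 (median 145663). Of 7 parvalbumin interneuron markers 3 rose, Pvalb by 0.78, and 2 fell, and of 7 other interneuron markers 1 rose and 3 fell. Endothelial and mural markers fell in 5 of 6, astrocyte markers in 3 of 6 and oligodendrocyte precursor markers in 3 of 5. The counts for all but the excitatory markers are given for the deposited values only, without trend removal. The part of these markers in the lithium differences of the channel genes was not tested.

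Scn4b, the beta subunit of resurgent sodium current, is highly expressed in striatal neurons, and here it varied widely between libraries of the same group. Its median coefficient of variation within groups was 35.6%, against 4.4% for Cacna1i and Scn3b and 4.6% for Scn2b, and its highest library was 11.5-fold above its lowest. In 4 libraries, HT vehicle male 3, WT vehicle female 4, HT fluoxetine male 2 and WT lithium female 4, it reached 4993, 4671, 4530 and 3272 normalised counts. The other 55 libraries ran from 433 to 2768 (median 1220). The same 4 libraries had the highest sums of 8 striatal neuron markers, 30038, 23764, 28654 and 22297 normalised counts, while the other 55 ran from 5928 to 14535 (median 7030). They belong to 4 different groups.

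The relation between members and the striatal and meningeal marker sums was examined after these values had been seen, on log2 deviations from the group means in all 59 libraries, as 60 relations (30 members, 2 lists) with 100000 permutations within groups. For Scn4b and the striatal sum Pearson's r was 0.837 (adjusted permutation p = 7.5e-05, from the smallest p the permutations can give) and Spearman's rho 0.718 (adjusted permutation p = 8.57e-05). Without the 2 libraries farthest from the median r was 0.768, and without 4 it was 0.660. Within the 25 lithium and HT fluoxetine female libraries it was 0.762, and within the other 34 it was 0.880.

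Cacna2d2 (r = 0.695, rho = 0.596) was also higher where striatal markers were higher, with r = 0.613 without the 2 farthest libraries and 0.504 without 4. Cacna2d2 had 1568 to 1836 normalised counts in the 4 libraries and 881 to 1500 in the other 55. The share of all genes that separate these 2 sets was not computed. Scn7a (r = -0.722, rho = -0.638) and Cacna2d1 (r = -0.660, rho = -0.520) were lower where striatal markers were higher. Without the 2 farthest libraries their r was -0.627 and -0.552, and without 4 it was -0.567 and -0.442. Each of these 3 relations had an adjusted permutation p for r of 7.5e-05, and in each the sign was the same within the 25 and within the 34 libraries. In all, 8 members were positively and 3 negatively related to the striatal sum at an adjusted permutation p under 0.05. For the meningeal sum these were 2 and 6, among them Scn7a (r = 0.560, rho = 0.664), Cacna2d2 (r = -0.560, rho = -0.635) and Scn4b (r = -0.516, rho = -0.587). The share of all genes related to either sum was not computed, so these counts cannot be set against it. Scn9a, among the 8, had r = 0.472 with the striatal sum, but 0.084 without the 4 farthest libraries and -0.027 within the 25.

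Among the members not called under lithium over both genotypes were Scn1a, Scn4b, Scn7a, Scn9a and Cacna1f. The striatal sum had medians of 6789 normalised counts under vehicle and 7477 under lithium in WT, and 7250 and 7522 in HT, and 1 of its 8 markers, Adora2a, fell under lithium. The meningeal sum was lower under lithium, with medians of 2827 under vehicle and 2094 under lithium in WT, and 2848 and 1921 in HT. Its vehicle and lithium libraries overlapped in both genotypes. The part of dissection in the differences of these members was not tested.

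**Figure D5:**
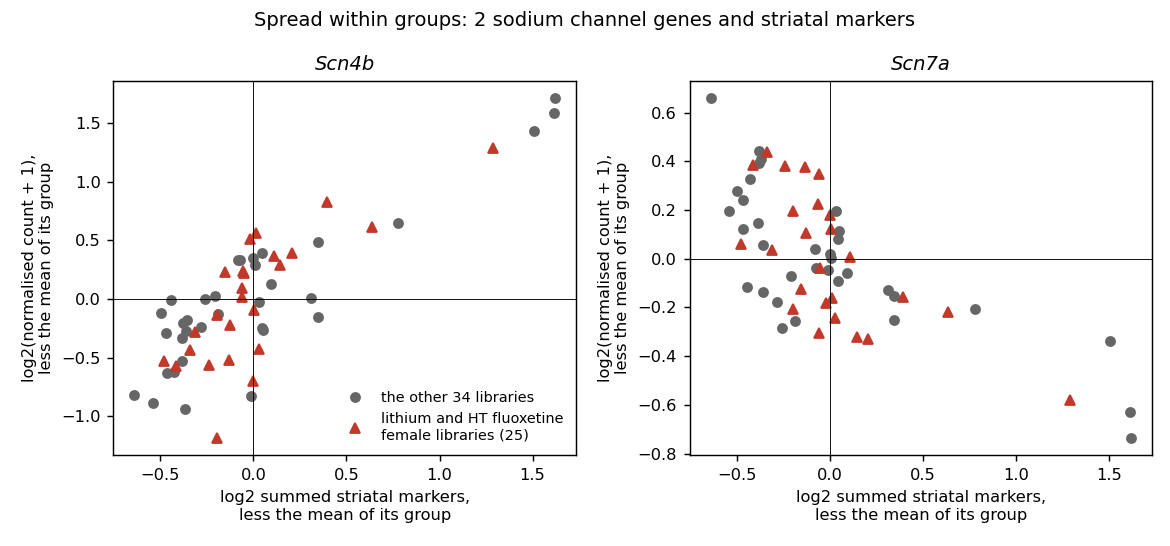
Scn4b and Scn7a in all 59 libraries against the summed striatal markers, each as a log2 value less the mean of its group, with the 25 lithium and HT fluoxetine female libraries as triangles and the other 34 as circles. Scn4b is higher (r = 0.837) and Scn7a lower (r = -0.722) where striatal markers are higher, and the 4 libraries named above stand at the right.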

How the data were processed

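RNA-seq of prefrontal cortex gave 1 table of Ensembl genes by 59 libraries. The deposited values are a normalised signal, whole read numbers that the authors divided by 1 size factor per library (0.827 to 1.129), since every value checked was a whole multiple of 1 step per column (100% within 0.01 read). The build is GRCm38, per the submitters' processing notes, which also list DESeq2 1.19.11, Salmon 0.11.2 and R 3.6.0 with no role. Library preparation used a stranded mRNA kit, per the labels' protocols. Symbols, positions, GC content and exon lengths came from GENCODE M21, which held 18077 of 18088 identifiers. Depth limits counting error only, and 0 columns were left out.

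Log2(value + 1) was fitted in R 4.3.3 by limma-trend (limma 3.58.1), with 1 mean for each of 12 groups, for the 17891 genes that passed the filter. It was two-sided, with Benjamini-Hochberg adjustment over all tested genes in each of 11 comparisons and a threshold of 0.05; comparisons by sex used the same fit. Differences are on the log2(value + 1) scale, which understates changes of low genes. Libraries counted as higher or lower are set against the mean of reference libraries that match in sex and in genotype or treatment. 2 members enter counts and are not reported here by name. Every other member could be named; full values were for those called in any comparison and for Scn1a, Scn2a, Scn3a, Scn8a, Cacna1a and Cacna1c, up to 4 called partners with the smallest p per list, up to 3 markers per list, and Naa15. Members, lists and rules were chosen with earlier results of these data known.

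Alternatives were no intensity trend, added constants of 0.5 and 5, no filter, a mean of at least 100, quantile normalisation, median centring, removal from each library of its trend with GC content and length (natural splines, 5 degrees of freedom each), omission of the HT fluoxetine females, a replicate block, only the groups compared, and leaving out each library. Added after the data were seen were DESeq2 1.42.0 and edgeR 4.0.16, run on reads recovered from the values, trend removal together with omission of those females, omission and trend removal for females against males, and trend removal for the other 2 comparisons that set HT fluoxetine females apart. The test was checked on simulated data. Correlations used scipy 1.17.1 (Python 3.11.15), and figures matplotlib 3.10.9.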

Additional observations from a re-analysis of the deposited data

Results flagged for a closer look

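In 21 of 168 sets of libraries (28 members in 6 combinations of genotype and treatment, 12.5%), the highest or lowest library lay far from its nearest neighbour for the range of the set; chance flags about 1 in 20 groups. The values are normalised counts. HT vehicle male 3 was apart for Scn4b (4993), Cacna2d1 (6318) and Cacna2d4 (156). HT fluoxetine male 2 was apart for Scn4b (4530) and Cacna2d2 (1836). WT vehicle female 4 was apart for Scn4b (4671), and WT lithium female 4 for Scn4b (3272). These 4 libraries also had the highest striatal marker sums.

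Other libraries were apart for other genes. WT vehicle female 1 was low for Cacnb1 (3956) and Cacna1a (6534) and high for Scn3a (2205). WT lithium male 2 was low for Cacnb2 (1078), Cacna1d (1741) and Cacna1g (2919). WT fluoxetine male 3 was high for Cacna2d1 (10936) and Cacnb2 (1519). Single genes set apart WT fluoxetine male 4 (Scn3a at 1367), WT fluoxetine male 5 (Cacna1f at 17.8, in the library with the highest meningeal marker sum), WT vehicle female 3 (Scn10a at 21.5), WT vehicle female 5 (Cacna1g at 4800), HT fluoxetine male 5 (Cacna1d at 2649) and HT lithium male 5 (Scn2a at 10026).

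The interaction of genotype with fluoxetine passed in limma for Cacnb3 (-0.27), Cacna1i (-0.23), Cacnb1 (-0.23) and Cacna1b (-0.17, log2 scale), with 20.6% of all genes called. It called 0 members without the HT fluoxetine females and 0 after trend removal. The Cacna1b call also ended when any of 15 single libraries was left out (limma adjusted p = 0.0509 to 0.0806). Within HT the interaction of sex with fluoxetine passed for Cacna1h (-0.49), Cacna1i (-0.31), Cacna1g (-0.31) and Cacnb1 (-0.24), with 15.2% of all genes called. After trend removal it called 0 members. Both sets include the 5 HT fluoxetine female libraries, and the cause was not tested.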

How the results depend on the processing

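Counts of called members moved by under 1.5 times under no intensity trend, both added constants, no filter, a mean of at least 100, only the groups compared, edgeR and DESeq2. With the GC and length trend removed the counts were 11 for lithium over both genotypes (24 before), 7 in WT (19), 8 in HT (17), 4 for fluoxetine in HT (11), 0 in WT (1), 1 for HT against WT under fluoxetine (10), 2 over all treatments (6) and 0 for the interaction of genotype with fluoxetine (4). Without the HT fluoxetine females, the last 3 and fluoxetine in HT were 0, also with the trend removed. For females against males the count (3) was 0 without the HT fluoxetine females, with the trend removed, and with both. Quantile normalisation gave 3 over all treatments, and median centring 0 for fluoxetine in WT. Leaving out 1 library gave 0 to 1 for fluoxetine in WT, 7 to 12 for fluoxetine in HT (7 without HT vehicle male 2) and 3 to 7 for the interaction (7 without HT fluoxetine female 5).

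Reversed means here a changed sign of a member called in either fit, not a call in the new direction, and several of the values are small. Trend removal reversed, on the log2 scale over both genotypes under lithium, Cacna1a (0.1175), Cacna1d (0.022), Cacna1g (0.091), Cacna1h (0.2058), Cacna2d2 (0.1166) and Cacnb3 (0.0185). Of these, only Cacna1a, Cacna1g and Cacna1h were called in the new direction. In WT trend removal reversed Cacna1a (0.1201), Cacna1g (0.0246), Cacna1h (0.1828), Cacnb1 (0.0279) and Cacnb3 (0.025), and in HT Cacna1a (0.1148), Cacna1g (0.1574), Cacna1h (0.2289), Cacna1i (0.0148) and Cacnb3 (0.0119). Under fluoxetine it reversed Cacna1a (0.022) and Cacna1g (0.0281) for HT against WT, Cacna1g (0.1223), Cacna1i (0.0041) and Cacnb1 (0.0163) in HT, and the interaction for Cacna1i (0.0164). Together with omission of the HT females it reversed Cacna1a (0.0091) for HT against WT, Cacnb4 (-0.0050) in HT, and the interaction for Cacna1i (0.0075) and Cacnb1 (0.0454). Quantile normalisation reversed Scn2a under lithium (0.0125). The cause was not tested.

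Libraries with the same replicate number were not paired (mean correlation of same-numbered libraries 0.0104, 16 of 59 closest to their own number); a replicate block gave 7 members for HT against WT over all treatments and left the other 10 counts the same. No scaling moved the median of all genes by 0.1. Depth limits Scn10a and Cacna1f, which lay under 10 in most libraries.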
